A study of Caenorhabditis elegans with 58 samples.

Results

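lin-4 and mir-237 are a pair of microRNA genes of the nematode Caenorhabditis elegans, and their members here were the rows of the count table named for either hairpin, which gave 4 arms among 276 and 2 hairpins among 138. The 4 arms were lin-4_5p and mir-237, the guide strands, and lin-4_3p* and mir-237_3p*, the star strands, where the asterisk is the authors' mark for a star. The arms were measured by small RNA sequencing of whole hermaphrodites in 58 libraries from 15 groups and 3 experiments. The animals labelled alg-1(AEDH); alg-2(AEDH), here double AEDH (strain MCJ275), carried alg-2(cdb155) on chromosome II and alg-1(cdb153) on chromosome X, which change the DEDH catalytic tetrad of the Argonautes ALG-1 and ALG-2 to AEDH. Experiment 1 held double AEDH and wild-type (N2) mixed embryos (4 libraries each), L4 larvae (3 each) and young adults (4 each). Experiment 2 held young adults of 6 genotypes with 4 libraries each. They were ebax-1(null) combined with double AEDH (MCJ354), Y47(mir-243bs_del) combined with double AEDH (MCJ352), double AEDH, ebax-1(null) (CZ9907, allele tm2321), Y47(mir-243bs_del) (MCJ350) and wild type. The Y47 deletion removes a mir-243 binding site in Y47H10A.5 and was allele cdb190 in the triple mutant and cdb188 alone. Experiment 3 held mixed embryos of alg-1(AEDH) (MCJ277), alg-2(AEDH) (MCJ288) and wild type, with 4 libraries each. Each genotype was 1 strain, and no label gives the ages of the embryos beyond mixed. From hatched first-stage larvae, growth to young adults took 44 h at 25 °C and growth to L4 took 48 h at 20 °C, so stage and temperature cannot be told apart between them.

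A microRNA hairpin is cut by Dicer into a duplex whose guide strand stays in an Argonaute and pairs with target mRNAs through its seed, while the other strand, the star, is removed. lin-4 was the first microRNA described; it represses lin-14 and lin-28 and so times the early larval cell fates of the worm, and its relatives in other animals are the miR-125 family. mir-237 is the other worm member of that family and shares the lin-4 seed. EBAX-1 is the worm counterpart of ZSWIM8, the receptor of a ubiquitin ligase that acts in target-directed microRNA degradation.

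In the authors' annotation (MirGeneDB coordinates on ce11), the lin-4 hairpin spans chrII:5902269-5902329 on the plus strand, with a guide of 21 nt at its 5′ end, a star of 22 nt at its 3′ end and a loop of 18 nt between them. It lies in an intron of the protein-coding gene F59G1.4, on the same strand, and a noncoding RNA gene on the other strand, F59G1.10, overlaps it. The mir-237 hairpin spans chrX:8154099-8154157 on the plus strand, with a guide of 23 nt, a star of 22 nt and a loop of 14 nt. It lies outside protein-coding genes, the nearest being F22F1.2, 3378 bp away on the minus strand. Both guides thus come from the 5′ arm, and the chromosomes are those of the edited genes, alg-2 for lin-4 and alg-1 for mir-237.

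Levels are given as CPM, counts scaled to a total of 1000000 over all microRNA arms, of which each library held 4806021 to 21076794. At these depths 3 counts, the limit that a count of 0 allows, correspond to 0.142 to 0.624 CPM. These limits cover counting error only, since the reads carry no molecular identifiers. Whether replicates came from separate cultures is not stated in the labels, and the p-values therefore reflect only how these libraries vary, which may be technical. Fold changes come from edgeR's quasi-likelihood test with TMM scaling, with Benjamini-Hochberg adjustment over all arms tested, and an arm was called at an adjusted p under 0.05. In whole animals, fewer cells making a microRNA and less of it per cell cannot be told apart. Where the ranges of groups are said not to overlap, how many other arms or hairpins share that was not counted. The second replicate of each embryo group of experiment 1 stood apart from the others for these microRNAs, as described beside the results it touches.

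Both guides were scarce in embryos and abundant in every later group. In wild-type L4 larvae lin-4_5p had 2935, 3172 and 3075 CPM in the 3 libraries, against 5.98, 164, 8.30 and 6.90 CPM in wild-type embryos of the same experiment. mir-237 had 6280, 7439 and 5501 CPM in wild-type L4 larvae, against 14.9, 93.8, 18.9 and 15.6 CPM in wild-type embryos. Neither guide's L4 and embryo ranges overlapped, and the lowest L4 library was far above the highest embryo library for both. lin-4_5p rose by 5.58 ± 1.11 on the log2 scale (SE, adjusted p = 1.31e-04 by edgeR), and mir-237 by 7.04 ± 0.70 (adjusted p = 1.13e-08). Without the 2 second-replicate embryo libraries these values were 8.38 for lin-4_5p and 8.22 for mir-237. The ratio of median CPM was 405-fold for lin-4_5p and 364-fold for mir-237, while the ratio of mean CPM, which the high embryo library enters, was 66.0-fold for lin-4_5p and 179-fold for mir-237. All 4 arms were called higher in L4 larvae, in a comparison where 79.4% of the 238 arms tested were called in either direction. The stars passed the count filter there only through the later stages.

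The star strands followed the same order of stages at much lower levels. mir-237_3p* had 29.8, 31.9 and 24.1 CPM in wild-type L4 larvae, against 0.129, 0.380, 0.355 and 0.421 CPM in wild-type embryos, where these levels were 2 to 5 counts a library. It rose by 6.06 ± 0.63 on the log2 scale (adjusted p = 2.41e-08 by edgeR). lin-4_3p* had 7.06, 6.09 and 3.31 CPM in wild-type L4 larvae and no count in any of the 4 wild-type embryo libraries, whose 54703947 arm counts together allow a level of up to 0.0548 CPM. Against that limit over the group it was at least 100-fold higher in L4 larvae. The edgeR fit itself gave a log2 difference of 8.65 (adjusted p = 3.13e-08). Both stars passed the count filter of that fit only through the later stages, and their embryo counts are those given above. As a share of both arms of its hairpin, the mir-237 star made up 0.445 ± 0.024% in wild-type L4 larvae (SD, n = 3). It made up 1.43 ± 1.00% in wild-type embryos (SD, n = 4). The fitted star-to-guide ratio of mir-237 was lower in L4 larvae by 1.55 ± 0.54 on the log2 scale (limma adjusted p = 0.0218). This hairpin passed the mean-count filter of the ratio fit only through the later stages. In wild-type embryos its ratio rested on 2 to 5 star counts a library, so the call cannot decide whether the ratio differs between these stages. Of the 93 ratios tested between these stages, 46.2% were called. That call of the ratio was lost without wild-type L4 replicate 2 or 3 or wild-type embryo replicate 3 or 4. The log2 differences were then -1.53 to -1.15, with limma adjusted p of 0.0600 to 0.0903.

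**Figure D1:**
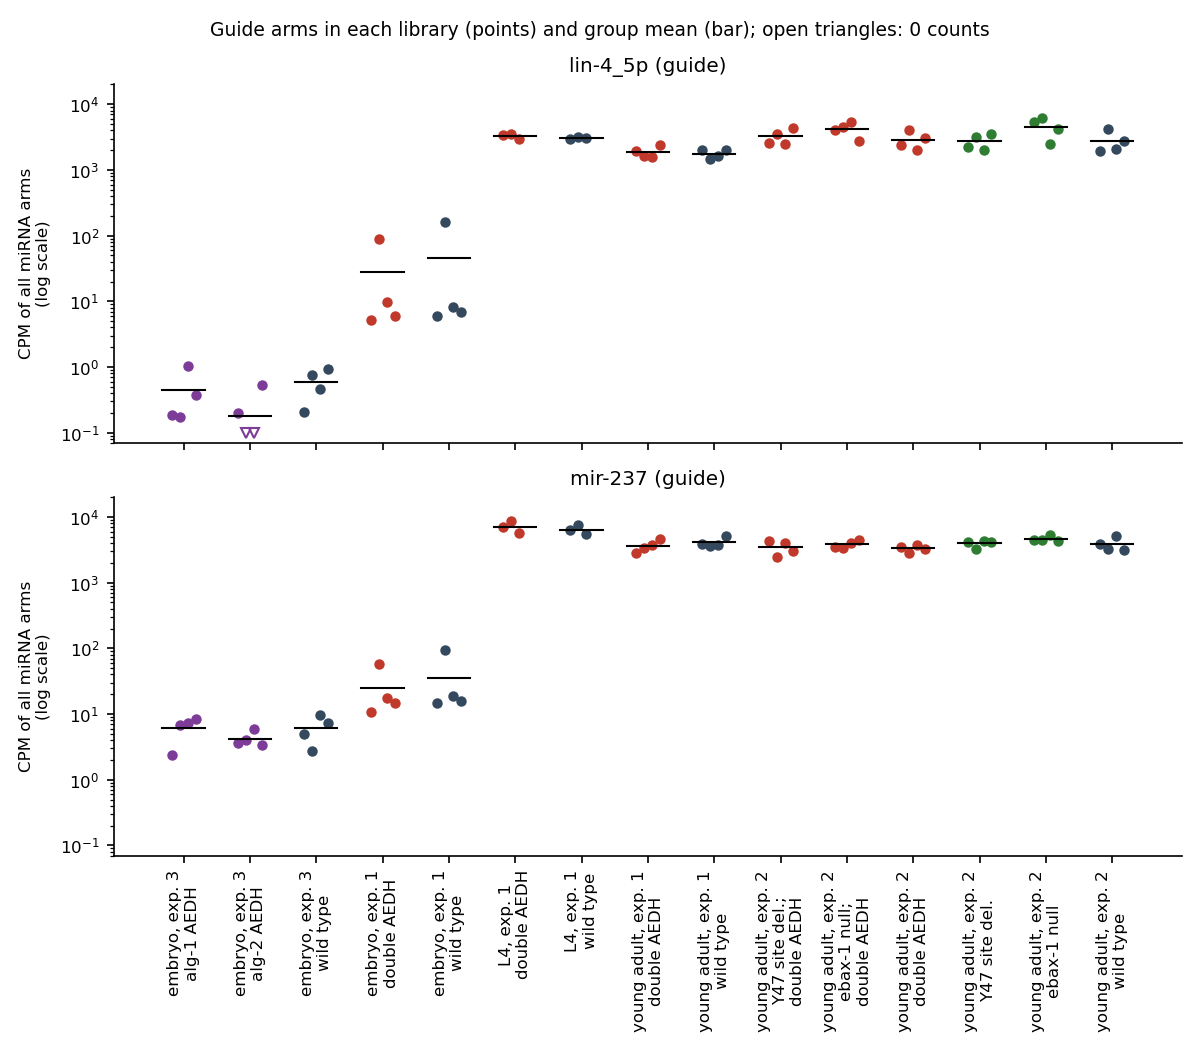
Level of the guide arms lin-4_5p (top) and mir-237 (bottom) in each of 58 libraries, in CPM on a log axis, with the mean of each of 15 groups as a bar and open triangles at libraries with 0 counts. No embryo library is above 164 CPM and no L4 or young adult library below 1467 CPM for either guide.

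The 8 embryo libraries of experiment 1 differed widely among themselves. The second replicate held 90.4 CPM of lin-4_5p in double AEDH embryos, against 5.23, 9.67 and 6.01 CPM in the other 3 libraries of that genotype. In wild-type embryos the second replicate held 164 CPM, as given above. Relative to the mean of the other 3 libraries, the second replicate was 12.97-fold higher in double AEDH and 23.3-fold higher in wild type for lin-4_5p, and 4.03-fold and 5.69-fold higher for mir-237, in the same order of genotypes. Among 147 arms compared in this way, 4 were at least 2-fold higher in both second replicates. They were lin-4_5p, mir-34_5p*, mir-237 and mir-248_3p, named after their values were seen. let-7_5p, which is known as a late larval and adult microRNA, was 0.875-fold in the double AEDH second replicate and 1.25-fold in the wild-type one. The mir-35 family, whose 8 members are abundant in embryos, summed to 522574 CPM in the double AEDH second replicate and 521254 CPM in the wild-type one, against 473821 to 533717 CPM in the other 6 libraries. What set these 2 libraries apart was not tested.

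**Figure D2:**
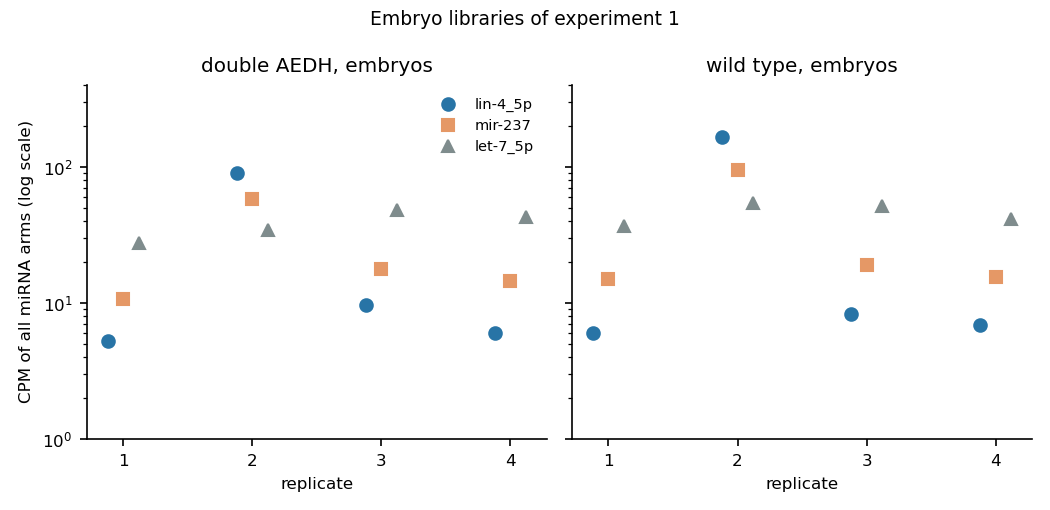
Levels of lin-4_5p, mir-237 and let-7_5p in the 4 double AEDH (left) and 4 wild-type (right) embryo libraries of experiment 1, in CPM on a log axis. In replicate 2 of both genotypes lin-4_5p (90.4 CPM in double AEDH, 164 CPM in wild type) and mir-237 (57.6 and 93.8 CPM) lie above the other replicates, while let-7_5p does not stand apart.

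Neither guide was called different between double AEDH and wild-type embryos. mir-237 had 10.7, 57.6, 17.7 and 14.5 CPM in double AEDH embryos, in replicates 1 to 4, and its range overlapped that of the wild-type values given above, as did the range of lin-4_5p. The fitted difference was -0.74 ± 1.35 on the log2 scale for lin-4_5p (SE, adjusted p = 0.867 by edgeR) and -0.53 ± 0.76 for mir-237 (adjusted p = 0.835), neither of them called, where 11.3% of 212 arms were. Leaving out the wild-type second replicate turned these values to 2.01 for lin-4_5p and 0.61 for mir-237, and leaving out the double AEDH one made them -2.81 and -1.40 for the same guides. Replicate numbers paired these libraries, and the double AEDH library was below the wild-type one of the same number in 4 of 4 pairs for mir-237 and in 3 of 4 for lin-4_5p. With the replicate number as a block the difference was -0.40 for mir-237 (adjusted p = 0.0560 by edgeR) and -0.37 for lin-4_5p (adjusted p = 0.141), still not called, where 62 arms were. Without both second replicates, and with no block, they were -0.08 for lin-4_5p (adjusted p = 0.955) and -0.26 for mir-237 (adjusted p = 0.670). The stars were too low to test, with 1 count or none of lin-4_3p* in each double AEDH embryo library and 3 to 12 counts of mir-237_3p*.

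In the embryos of experiment 3 the guides were lower still. lin-4_5p had 1, 1, 7 and 2 counts in alg-1(AEDH), 1, 0, 0 and 3 counts in alg-2(AEDH) and 1, 5, 3 and 6 counts in wild type, and it was not tested. Most of these libraries lay at or near the limit of 3 counts, so no fold is given, and lin-4_3p* had no count in any of the 12 libraries. mir-237 had 2.38, 6.80, 7.24 and 8.37 CPM in alg-1(AEDH), 3.58, 4.06, 5.97 and 3.35 CPM in alg-2(AEDH) and 4.99, 2.73, 9.62 and 7.23 CPM in wild type, and all 3 ranges overlapped. Its difference from wild type was 0.01 ± 0.33 on the log2 scale in alg-1(AEDH) (adjusted p = 0.995 by edgeR) and -0.49 ± 0.34 in alg-2(AEDH) (adjusted p = 0.406). The 95% intervals of these differences reached from -0.71 to 0.72 in alg-1(AEDH) and from -1.22 to 0.25 in alg-2(AEDH). Of 197 arms tested, 0.508% were called in alg-1(AEDH) and 4.06% in alg-2(AEDH). The marker microRNAs also differed between the embryos of experiments 3 and 1. Median let-7_5p was 7.79 to 8.49 CPM in the 3 groups of experiment 3, against 38.3 CPM in double AEDH and 46.0 CPM in wild-type embryos of experiment 1. The mir-35 family summed to medians of 267248 to 307536 CPM in experiment 3, against 510698 and 505806 CPM in those groups of experiment 1, and mir-1_3p, a body muscle microRNA, had medians of 139294 to 157114 CPM, against 70383 and 74587 CPM. Their part in the lower guide levels was not tested.

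Wild-type young adults had lower levels of both hairpins than wild-type L4 larvae, and lin-4_3p* was the arm called. lin-4_5p had 2011, 1467, 1608 and 1980 CPM in wild-type young adults, all below the 2935 to 3172 CPM of the wild-type L4 libraries. mir-237 had 3925, 3650, 3771 and 5200 CPM in wild-type young adults, also all below the 5501 to 7439 CPM of the L4 libraries. lin-4_3p* had 0.669, 2.24, 2.21 and 1.91 CPM in young adults, again below every L4 library. It fell by 1.49 ± 0.41 on the log2 scale (SE, adjusted p = 0.00729 by edgeR), 1 of the 4 arms, where 42.4% of 238 arms were called. The guides differed by -0.68 ± 0.96 for lin-4_5p (adjusted p = 0.594) and -0.51 ± 0.57 for mir-237 (adjusted p = 0.488) in that fit, which shares 1 estimate of the spread with the scattered embryo libraries. With the replicate number as a block within each stage, lin-4_5p differed by -0.68 (adjusted p = 1.36e-04 by edgeR) and mir-237 by -0.51 (adjusted p = 7.58e-04). In that fit 141 of 238 arms were called. That block pairs double AEDH with wild type inside a stage and does not pair L4 larvae with young adults. It takes out the spread between replicates of a stage, so these p-values can be too small for a comparison of stages. Without both second-replicate embryo libraries, the adjusted p was 0.00279 for lin-4_5p and 0.0324 for mir-237, and with the embryo groups left out altogether it was 0.00329 and 0.0631 for the same guides.

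mir-237_3p* had 10.8, 17.9, 19.1 and 20.3 CPM in wild-type young adults, below every wild-type L4 library, and differed by -0.61 ± 0.47 (adjusted p = 0.319 by edgeR). Scaling by spike-in counts put the median of all arms at -0.58 in this comparison, against -0.08 with TMM. On that scale mir-237_3p* differed by -1.15 (adjusted p = 0.0373 by edgeR), where 29 arms were called higher and 83 lower. The star-to-guide ratio of lin-4 differed by -0.87 ± 1.05 between young adults and L4 larvae (limma adjusted p = 0.617). That of mir-237 differed by -0.14 ± 0.54 (limma adjusted p = 0.869), and 26.9% of 93 ratios were called. With the replicate block the lin-4 ratio differed by the same amount with a limma adjusted p of 0.0488, where 45 of 93 ratios were called.

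Neither guide was called different between double AEDH animals and their controls at any later stage. In L4 larvae lin-4_5p had 3380, 3519 and 2930 CPM in double AEDH, of which 2 lay above all 3 wild-type libraries and the third just below them, and differed by 0.10 ± 0.13 on the log2 scale (SE, adjusted p = 0.781 by edgeR). mir-237 had 6936, 8621 and 5664 CPM in double AEDH L4 larvae and differed by 0.15 ± 0.18 (adjusted p = 0.775). In young adults of experiment 1 lin-4_5p had 1965, 1634, 1591 and 2399 CPM in double AEDH and differed by 0.11 ± 0.14 (adjusted p = 0.858). mir-237 had 2806, 3399, 3790 and 4556 CPM there and differed by -0.18 ± 0.15 (adjusted p = 0.706). In each of these comparisons the ranges of the groups overlapped, and the 95% intervals reached from -0.20 to 0.39 for lin-4_5p and from -0.27 to 0.57 for mir-237 in L4 larvae. In young adults of experiment 1 they reached from -0.21 to 0.43 for lin-4_5p and from -0.53 to 0.17 for mir-237.

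The 3 double AEDH comparisons of experiment 2 gave guide differences of similar size. lin-4_5p had 2408, 4025, 1980 and 3084 CPM in double AEDH, against 1942, 4173, 2065 and 2783 CPM in wild type, and differed by 0.10 ± 0.23 on the log2 scale (SE, adjusted p = 0.891 by edgeR). Its differences were -0.08 ± 0.23 in the ebax-1 null background (adjusted p = 0.896) and 0.18 ± 0.23 in the Y47 site deletion background (adjusted p = 0.709). mir-237 had 3548, 2837, 3707 and 3262 CPM in double AEDH, against 3832, 3218, 5180 and 3187 CPM in wild type, and differed by -0.20 ± 0.21 (adjusted p = 0.722). Its differences were -0.23 ± 0.21 in both the ebax-1 null (adjusted p = 0.620) and the Y47 site deletion background (adjusted p = 0.622).

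The star of mir-237 was higher in double AEDH L4 larvae. mir-237_3p* had 142, 141 and 49.6 CPM in double AEDH L4 larvae, against 29.8, 31.9 and 24.1 CPM in wild type. All 3 double AEDH libraries lay above all 3 wild-type ones, although the third was well below the other two. How many other arms separate in this way was not counted. It rose by 1.95 ± 0.37 on the log2 scale (SE, adjusted p = 0.0175 by edgeR), the 1 arm of the 4 called, where 4.93% of 223 arms were (11 arms, or 26 with the replicate number as a block). Its share of both arms averaged 1.49 ± 0.58% in double AEDH and 0.445 ± 0.024% in wild type (SD, n = 3 each), and the star-to-guide ratio rose by 1.68 ± 0.33 (limma adjusted p = 0.0135), where 11% of 91 ratios were called. The call of the arm was lost when the first or second double AEDH library or any 1 of the 3 wild-type libraries was left out, at log2 differences of 1.70 to 2.04 and adjusted p of 0.0576 to 0.109. That of the ratio was lost when the first or second double AEDH library, or wild-type replicate 2 or 3, was left out, at 1.42 to 1.66 and adjusted p of 0.0569 to 0.139. The marker let-7_5p was also lowest in the third double AEDH library, at 10559 CPM against 14806 and 15348 CPM in the other two and 11191 to 13360 CPM in wild type; its part in the result was not tested.

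In young adults of experiment 1 the double AEDH libraries were scattered. mir-237_3p* had 7.45, 26.3, 54.6 and 30.2 CPM in double AEDH, against 10.8, 17.9, 19.1 and 20.3 CPM in wild type. Replicate 1 of double AEDH was below all 4 wild-type libraries and the other 3 were above all of them. The difference was 0.80 ± 0.51 on the log2 scale (SE, adjusted p = 0.541 by edgeR), not called, where 1.36% of 220 arms were (3 arms, or 14 with the replicate number as a block). The share averaged 0.777 ± 0.480% in double AEDH and 0.414 ± 0.106% in wild type (SD, n = 4 each), and the ratio differed by 0.72 ± 0.45 (limma adjusted p = 0.453), where 6.67% of 90 ratios were called. Without replicate 1 of double AEDH the ratio differed by 1.16 (limma adjusted p = 0.0470). The mir-35 family, which marks embryos held in adults, summed to 140895 CPM in that library, against 27986 to 73714 CPM in the other 3 double AEDH libraries and 55479 to 95958 CPM in wild type. Its part in the result was not tested.

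The star of mir-237 was higher in all 3 double AEDH comparisons of experiment 2. It had 40.1, 22.7, 48.2 and 30.5 CPM in double AEDH, against 18.9, 14.8, 26.5 and 16.1 CPM in wild type. Replicate 2 of double AEDH fell within the wild-type range and the other 3 lay above it. The arm rose by 0.90 ± 0.25 on the log2 scale (SE, adjusted p = 0.0240 by edgeR), where 7.96% of 226 arms were called. The share averaged 1.03 ± 0.22% in double AEDH and 0.491 ± 0.023% in wild type (SD, n = 4 each), with no overlap, and the ratio rose by 1.05 ± 0.16 (limma adjusted p = 6.56e-05), where 9.78% of 92 ratios were called.

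In the ebax-1 null background mir-237_3p* had 56.5, 58.8, 55.3 and 75.6 CPM with double AEDH, against 27.1, 20.7, 23.3 and 20.4 CPM without it. All 4 libraries with double AEDH lay above all 4 without it. The arm rose by 1.48 ± 0.25 (adjusted p = 2.03e-04 by edgeR), where 11.1% of 226 arms were called. The share averaged 1.58 ± 0.15% with double AEDH and 0.493 ± 0.075% without it (SD, n = 4 each), and the ratio rose by 1.70 ± 0.16 (limma adjusted p = 3.61e-08), where 18.5% of 92 ratios were called. This call of the arm was kept without any 1 of the 8 libraries, at 1.25 to 1.55 and adjusted p of 9.44e-04 to 0.00353.

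In the Y47 site deletion background mir-237_3p* had 33.8, 25.0, 41.4 and 34.4 CPM with double AEDH, against 16.1, 16.1, 21.4 and 19.5 CPM without it, and the ranges did not overlap. The arm rose by 0.84 ± 0.25 (adjusted p = 0.0403 by edgeR), where 7.08% of 226 arms were called. The share averaged 0.979 ± 0.146% with double AEDH and 0.460 ± 0.052% without it (SD, n = 4 each), and the ratio rose by 1.09 ± 0.16 (limma adjusted p = 7.79e-05), where 8.7% of 92 ratios were called. Outside the ebax-1 null background the arm's calls in experiment 2 were fragile, while those of the ratio were kept without any 1 library. The call against wild type did not hold when the first or the third double AEDH library was left out, or any wild-type library but replicate 3, at 0.63 to 0.88 and adjusted p of 0.0664 to 0.180. The call in the Y47 site deletion background was lost without any 1 of the 8 libraries but the second with double AEDH, at 0.73 to 0.90 and adjusted p of 0.0570 to 0.181.

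**Figure D3:**
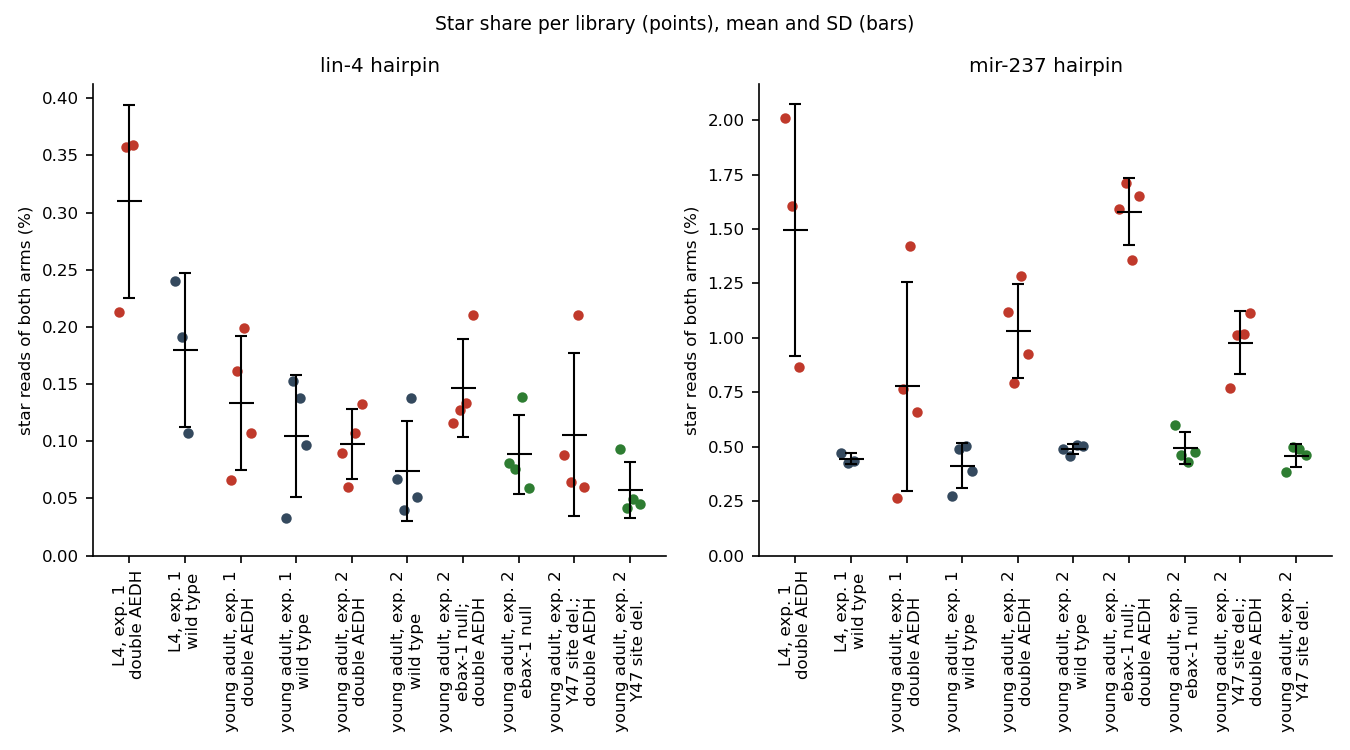
Star counts as a percent of both arms' counts for the lin-4 hairpin (left) and the mir-237 hairpin (right) in L4 and young adult groups, with each double AEDH group left of its control. Points are libraries, and bars give the mean and SD (n = 3 for L4, n = 4 otherwise). For mir-237 the double AEDH groups average 0.777% to 1.58% and their controls 0.414% to 0.493%, with overlap only in young adults of experiment 1.

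The star of lin-4 was not called in any double AEDH comparison, although each fitted difference was above 0. The median star-to-guide difference over all hairpins was above 0 in these comparisons as well, as given below. lin-4_3p* had 7.20, 12.6 and 10.6 CPM in double AEDH L4 larvae, all above the 3.31 to 7.06 CPM of wild type, and differed by 0.93 ± 0.34 on the log2 scale (SE, adjusted p = 0.195 by edgeR). In young adults of experiment 1 it had 1.30, 2.64, 3.18 and 2.57 CPM in double AEDH, overlapping wild type, and differed by 0.46 ± 0.42 (adjusted p = 0.716). In experiment 2 it had 2.17, 2.42, 2.13 and 4.10 CPM in double AEDH, against 1.29, 1.68, 2.85 and 1.43 CPM in wild type, and differed by 0.58 ± 0.35 (adjusted p = 0.463). These young adult levels were 6 to 47 counts a library.

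In the mutant backgrounds of experiment 2 lin-4_3p* was not called, where 11.1% of 226 arms were in ebax-1 null and 7.08% in the Y47 site deletion. Its ranges did not overlap between the groups, but how many other arms share that was not counted. It had 4.78, 5.74, 7.07 and 5.82 CPM in the ebax-1 null with double AEDH, against 4.32, 4.60, 3.47 and 2.46 CPM without it, a difference of 0.70 ± 0.32 (adjusted p = 0.205 by edgeR). It had 2.30, 2.30, 5.28 and 2.61 CPM in the Y47 site deletion with double AEDH, against 2.09, 1.31, 1.01 and 1.63 CPM without it, a difference of 0.95 ± 0.35 (adjusted p = 0.131). The Y47 site deletion value passed without the first Y47 site deletion library, at 1.25 (adjusted p = 0.0496). The lin-4 star-to-guide ratio differed by 0.82 ± 0.35 in L4 larvae (limma adjusted p = 0.197). It differed by 0.42 ± 0.50 and 0.50 ± 0.40 in young adults of experiments 1 and 2. The differences were 0.76 ± 0.40 in the ebax-1 null and 0.74 ± 0.40 in the Y47 site deletion (limma adjusted p of 0.218 to 0.672 in young adults). Over all hairpins tested, the median ratio difference was 0.14 in L4 larvae and 0.20 and 0.14 in young adults of experiments 1 and 2. It was 0.21 in the ebax-1 null and 0.28 in the Y47 site deletion. These medians are also the background of the mir-237 ratios.

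**Figure D4:**
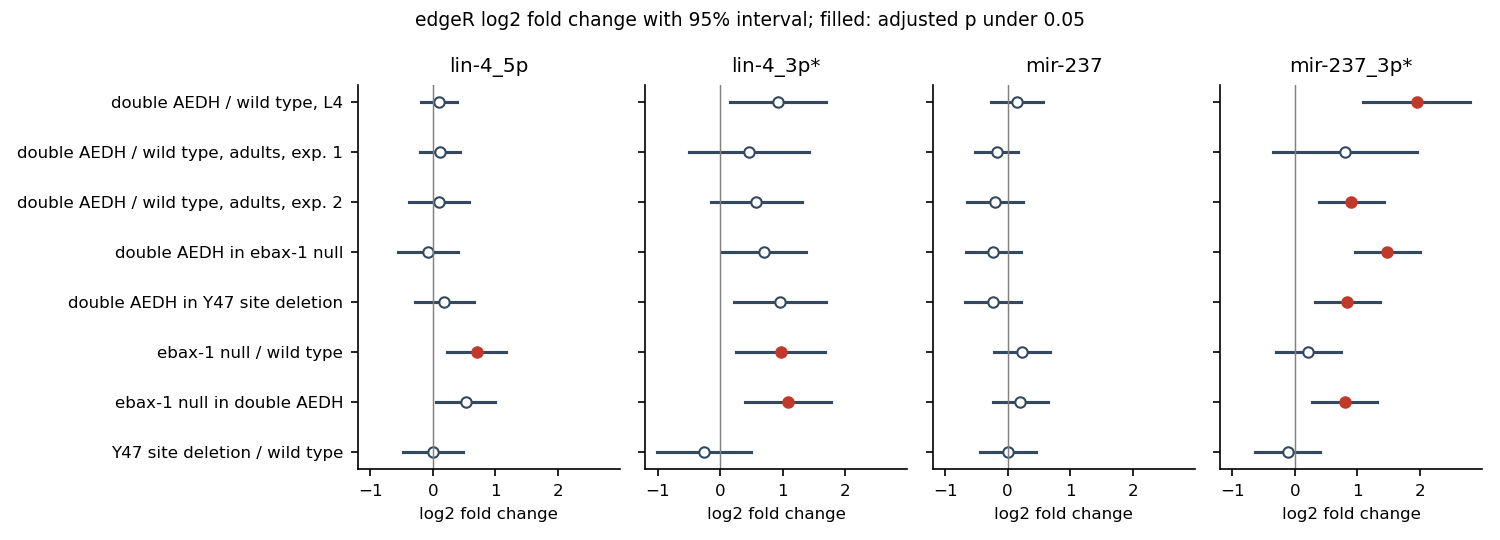
Fitted log2 fold changes (points) with 95% intervals (lines) of the 4 arms in 8 comparisons of L4 larvae and young adults, mutant over control, from edgeR. Filled points have an adjusted p under 0.05. The double AEDH differences of mir-237_3p* are called in 4 of 5 comparisons, and neither guide is called in any of those 5.

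Both lin-4 arms were called higher in ebax-1 null adults than in wild type. lin-4_5p had 5332, 6091, 2503 and 4147 CPM in ebax-1 null, against 1942, 4173, 2065 and 2783 CPM in wild type. The first and second ebax-1 null libraries were above every wild-type one, replicate 4 lay just below the highest wild-type one, and replicate 3 within the wild-type range. It rose by 0.70 ± 0.23 on the log2 scale (SE, adjusted p = 0.0307 by edgeR), and lin-4_3p*, given above for both groups, rose by 0.97 ± 0.35 (adjusted p = 0.0471). These were 2 of the 4 arms, where 21.7% of 226 arms were called. mir-237 had 4476, 4436, 5384 and 4243 CPM in ebax-1 null and differed by 0.23 ± 0.21 (adjusted p = 0.553), and mir-237_3p* differed by 0.21 ± 0.25 (adjusted p = 0.684). Neither star-to-guide ratio was called, at 0.33 ± 0.40 for lin-4 and -0.0034 ± 0.163 for mir-237, where 10.9% of 92 ratios were.

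The lin-4 calls in ebax-1 null rested on single libraries. That of lin-4_5p was lost without ebax-1 null replicate 1 or 2 or wild-type replicate 1, 3 or 4, at 0.62 to 0.68 and adjusted p of 0.0596 to 0.101, and with scaling by total counts (0.72, adjusted p = 0.0893). That of lin-4_3p* was lost without ebax-1 null replicate 1, 2 or 3 or wild-type replicate 1, 2 or 4, at 0.84 to 0.98 and adjusted p of 0.0599 to 0.136. The ebax-1 null libraries also differed in the mir-35 family, which summed to 37041 and 34527 CPM in replicates 1 and 2, the libraries with most lin-4_5p, and to 101624 and 96227 CPM in replicates 3 and 4. In wild type it summed to 58444 to 66687 CPM. Its part in the result was not tested. The counts of mir-237 per count of lin-4_5p were 0.839, 0.728, 2.15 and 1.02 in ebax-1 null, in replicates 1 to 4. They were 1.97, 0.771, 2.51 and 1.14 in wild type, and the part of this spread in the result was not tested either. Spike-in counts were 5.97 to 10.7% of arm counts in ebax-1 null and 9.62 to 13.8% in wild type, and scaling by them put the median of all arms at 0.75, against -0.01 with TMM. On that scale lin-4_5p was at 1.51, lin-4_3p* at 1.72, mir-237 at 0.95 and mir-237_3p* at 0.97, each of them called. Of the 226 arms, 107 were called higher on that scale and 0 lower.

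Within the double AEDH background, ebax-1 null was compared with the same animals carrying ebax-1. lin-4_5p had 4123, 4494, 5279 and 2761 CPM in ebax-1 null with double AEDH, against 2408, 4025, 1980 and 3084 CPM in double AEDH, with 3 of 4 libraries above every double AEDH one. It differed by 0.52 ± 0.23 on the log2 scale (SE, adjusted p = 0.141 by edgeR) and was not called. Both stars were called, without overlap between the groups, though how many other arms share that was not counted. lin-4_3p* rose by 1.09 ± 0.33 (adjusted p = 0.0290 by edgeR) and mir-237_3p* by 0.79 ± 0.25 (adjusted p = 0.0297), where 15.9% of 226 arms were called. mir-237 differed by 0.20 ± 0.21 (adjusted p = 0.709). The mir-237 star-to-guide ratio rose by 0.64 ± 0.16 (limma adjusted p = 0.00909) and that of lin-4 differed by 0.59 ± 0.40 (adjusted p = 0.480), where 9.78% of 92 ratios were called. The call of lin-4_3p* was lost when any of double AEDH replicates 1 to 3, or replicate 3 of ebax-1 null with double AEDH, was left out, at 1.03 to 1.08 and adjusted p of 0.0611 to 0.0754. That of mir-237_3p* did not hold when any double AEDH library but replicate 3 was left out, or replicate 2 or 4 of ebax-1 null with double AEDH, at 0.62 to 0.91 and adjusted p of 0.0545 to 0.116. With spike-in scaling the median of all arms here was 0.47, against -0.04 with TMM, and mir-237 was then called at 0.71 (adjusted p = 0.0354 by edgeR). That scaling called 26 of the arms higher and 0 lower.

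**Figure D5:**
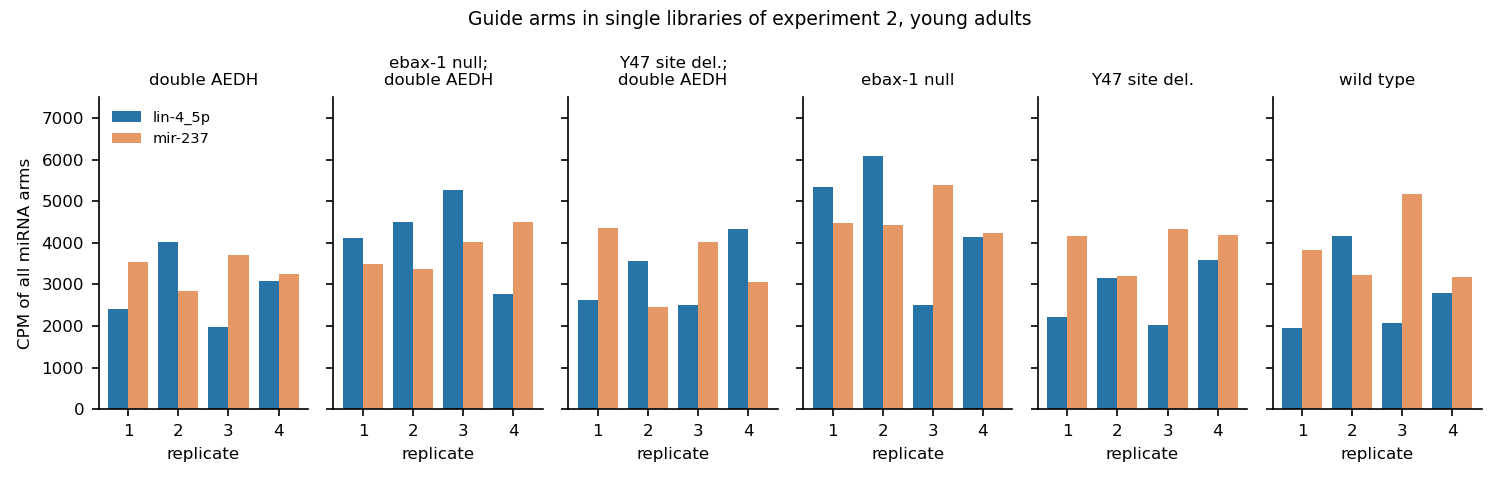
Levels of lin-4_5p and mir-237 in single young adult libraries of experiment 2, in CPM, by genotype (panels) and replicate number. In the 4 genotypes that carry ebax-1, lin-4_5p is higher in replicates 2 and 4 than in replicates 1 and 3, and in 3 of these 4 mir-237 is lower in replicates 2 and 4 than in replicates 1 and 3.

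The libraries of experiment 2 that carry ebax-1 differed in lin-4_5p by replicate number. In the Y47 site deletion with double AEDH it had 2617, 3560, 2499 and 4323 CPM in replicates 1 to 4, and in the Y47 site deletion alone 2227, 3161, 2032 and 3588 CPM. Together with the double AEDH and wild-type values above, replicates 2 and 4 exceeded replicates 1 and 3 in all 4 of these genotypes. mir-237 had 4347, 2452, 4021 and 3056 CPM in the Y47 site deletion with double AEDH and 4165, 3206, 4339 and 4183 CPM in the Y47 site deletion alone, and its double AEDH and wild-type values are given above. Replicates 2 and 4 were both below replicates 1 and 3 in 3 of these 4 genotypes, the exception being the Y47 site deletion alone, so the order of mir-237 was there the reverse of that of lin-4_5p.

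The Y47 site deletion alone, set against wild type, gave no call. lin-4_5p differed by 0.00 ± 0.23 on the log2 scale (SE, adjusted p = 0.999 by edgeR) and mir-237 by 0.01 ± 0.21 (adjusted p = 0.989). lin-4_3p* differed by -0.26 ± 0.36 and mir-237_3p* by -0.11 ± 0.25 (adjusted p = 0.977 for both). The percentage of the 226 arms called was 0 by edgeR and also by DESeq2, with 19 arms at an unadjusted p under 0.05 by edgeR. Among star-to-guide ratios the percentage called was likewise 0 of 92 by limma, with 5 at an unadjusted p under 0.05, and the differences were -0.27 ± 0.40 for lin-4 and -0.10 ± 0.16 for mir-237.

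Whether the double AEDH difference itself varied with stage or background was tested by interaction terms, and none of the 4 arms was called in any of 4 such tests. The test of embryos against L4 larvae could hardly have called the stars. They had 0 to 12 counts in each embryo library and passed the count filter only through the later stages. For mir-237_3p* the difference in L4 larvae exceeded that in young adults of experiment 1 by 1.18 ± 0.67 on the log2 scale (SE, adjusted p = 0.944 by edgeR). Its difference in ebax-1 null exceeded that in wild-type background by 0.58 ± 0.35 (adjusted p = 0.941), and that in the Y47 site deletion background differed from it by -0.06 ± 0.35 (adjusted p = 0.984). The percentage of arms called was 0 of 238 between L4 larvae and young adults (3 at an unadjusted p under 0.05) and 0 of 226 between the Y47 site deletion and wild-type backgrounds (11 at an unadjusted p under 0.05), with 0 by DESeq2 in both. It was 0.42 between embryos and L4 larvae and 0.885 between the ebax-1 null and wild-type backgrounds.

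The ratio of the guides also varied with replicate number in the genotypes of experiment 2 that carry ebax-1. It was 1.97, 0.771, 2.51 and 1.14 counts of mir-237 per count of lin-4_5p in wild type, in replicates 1 to 4. Replicates 1 and 3 were thus above replicates 2 and 4. That order was absent in ebax-1 null (0.839, 0.728, 2.15 and 1.02) and in ebax-1 null with double AEDH (0.846, 0.753, 0.759 and 1.63). In experiment 1 there were 1.95 ± 0.40 counts of mir-237 per count of lin-4_5p in double AEDH young adults and 2.35 ± 0.29 in wild-type young adults (SD, n = 4 each), and 2.14 ± 0.27 in double AEDH and 2.09 ± 0.28 in wild-type L4 larvae (SD, n = 3 each). In experiment 2 the means ran from 0.997 in ebax-1 null with double AEDH to 1.60 in wild type, with single libraries from 0.689 to 2.51. These are ratios of counts of arms of nearly equal length, and a difference between experiments was not tested. In the second-replicate embryo libraries of experiment 1 there were 0.638 counts in double AEDH and 0.571 in wild type, against 1.83 to 2.49 in the other 6 embryo libraries. In 13 comparisons between groups the exact two-sided permutation test of the log2 ratio gave a lowest unadjusted p of 0.171. The difference was 0.49 for alg-1(AEDH) and 1.31 for alg-2(AEDH) embryos, where lin-4_5p was near 0 counts, and between -0.46 and 0.34 in the other 11 comparisons. With 4 against 4 libraries the smallest p this test can give is 0.0286, and with 3 against 3 it is 0.1. Adjusted over the 13 comparisons, a lone comparison at 0.0286 would have a p of 0.371, so no single comparison could have passed on its own.

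Across all groups, the order of levels separated embryos from the rest. By mean CPM the lin-4_5p levels ran from 4518 in ebax-1 null to 1767 in wild-type young adults of experiment 1, then 46.3 in wild-type embryos of experiment 1 and 0.182 in alg-2(AEDH) embryos. Each neighbour in that order overlapped the next, other than at the steps from adults to embryos and from embryos of experiment 1 to those of experiment 3. mir-237 was highest in double AEDH L4 larvae (7073 CPM) and wild-type L4 larvae (6407 CPM), which overlapped each other and no other group. It then ran from 4635 CPM in ebax-1 null to 3338 CPM in double AEDH of experiment 2, again with overlap at each step. Among 276 arms, lin-4_5p ranked 34th to 44th and mir-237 29th to 41st in the L4 and young adult groups, while mir-237_3p* ranked 102nd in double AEDH and 141st in wild-type L4 larvae.

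The arms most like the guides were ranked by their group means. By Pearson's r of log2(CPM + 1) over 15 groups, among 172 arms with a mean of at least 10 CPM, lin-4_5p was closest to let-7_5p (0.994), mir-237 (0.993) and mir-48_5p (0.985), with mir-77_3p, named after its value was seen, next at nearly the same r (0.985). mir-237 was closest to let-7_5p (0.998), mir-241_5p (0.995) and mir-48_5p (0.994). The groups include a large step in level between embryos and later stages, and r was not computed within stages.

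let-7 and its relatives mir-48, mir-84 and mir-241 act later in the same timing pathway as lin-4. Of 7 guides of the let-7 family listed as its members, 6 were in the table. All 6 were called higher in wild-type L4 larvae than in wild-type embryos, with a median log2 difference of 7.02, against 0.15 over all arms tested, of which 79.4% were called in either direction. let-7_5p rose by 7.68 ± 0.23 (SE, adjusted p = 7.32e-17 by edgeR) and mir-84_5p by 6.70 ± 0.33 (adjusted p = 3.24e-13). In wild-type young adults against L4 larvae 1 of 6 fell, mir-241_5p, by 0.60 ± 0.18 (adjusted p = 0.0108), where 42.4% of all arms were called, and the median difference was -0.11. In double AEDH young adults of experiment 2, 1 of 6 rose, mir-84_5p, by 0.42 ± 0.11 (adjusted p = 0.0134), where 7.96% of all arms were called. In ebax-1 null 1 of 6 fell, mir-795_5p, by 0.73 ± 0.21 against wild type (adjusted p = 0.0127) and by 0.98 ± 0.21 within double AEDH (adjusted p = 0.00168), where 21.7% and 15.9% of all arms were called in the same order. The double AEDH L4 larvae, embryos and young adults of experiment 1 gave no call, with medians of 0.00, -0.28 and -0.02 against 0.01, -0.02 and 0.05 over all arms. Nor was any of the 6 called for double AEDH within ebax-1 null (median 0.04, against 0.01 over all arms) or within the Y47 site deletion (-0.23, against 0.00), for the Y47 site deletion alone (0.09, against 0.02), or in alg-1(AEDH) and alg-2(AEDH) embryos (-0.04 and -0.21, against -0.04 and -0.09).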

How the data were processed

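Small RNA from whole animals was sequenced, and the authors deposited 1 table of estimated counts per microRNA arm, whose values are whole or, for 5.67%, end in 0.5. The tools named are cutadapt 3.4, Bowtie2 2.4.4, SAMtools 1.13, HTSeq 0.13.5, DESeq2 and MirGeneDB 2.0, with build ce11, per the submitters' processing notes; the sources used here give no settings and do not state whether counting used strand. Summary rows held 11.9 to 44.6% of a library's reads and stayed out of all tests, as did 10 spike-in rows.

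The 2 hairpins and the marker and let-7 family lists were chosen with earlier results of these data known. Named arms were the 4 arms, the let-7 family list and the 3 arms most like each guide; others are said to be chosen after their values were seen. Counts were rounded and fitted over all arms with edgeR 4.0.16 (TMM, filterByExpr with a minimum count of 10, robust quasi-likelihood). Star-to-guide ratios, log2((star + 0.5) / (guide + 0.5)) of counts, were fitted with limma 3.58.1 over hairpins with a mean of at least 10 counts in both arms. mir-237 to lin-4 ratios were compared by exact permutation, adjusted over 13 comparisons. Scripts were tested on simulated data. Alternatives were DESeq2 1.42.0, other scalings, no filter, a block of replicate number within each stage and leaving out each library. Pairing was checked by the correlation of same-numbered samples' deviations from group means. It was over 0.1 for every pair in the double AEDH comparisons of experiment 1 and of experiment 2 outside ebax-1 null, in the Y47 site deletion and alg-1(AEDH) comparisons with wild type, and between wild-type young adults and L4 larvae (0.11 to 0.15). The numbers did not pair samples in the ebax-1 null, alg-2(AEDH) or L4-to-embryo comparisons. Differently numbered samples reached 0.904 for alg-1(AEDH) and 0.588 for the Y47 site deletion against wild type. Same-numbered ones reached 0.785 and 0.579 in the same order, so pairing by number is not shown in these comparisons.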

Additional observations from a re-analysis of the deposited data

Results flagged for a closer look

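Of 75 group values examined for a library far from the others of its group, 13 were marked, where chance alone marks about 1 in 20. The guides, their sum and their ratio come from the same libraries, so the marks are not independent and their number cannot be compared with chance. In double AEDH embryos of experiment 1 the second replicate was far above the other 3 for lin-4_5p (90.4 CPM), mir-237 (57.6 CPM) and the sum of both guides (148 CPM). In wild-type embryos of that experiment the second replicate was far above for lin-4_5p (164 CPM), mir-237 (93.8 CPM) and their sum (258 CPM), and far below for mir-237 counts per lin-4_5p count (0.571). In experiment 2 a highest library stood apart for lin-4_3p* in double AEDH (4.10 CPM, replicate 4) and in the Y47 site deletion with double AEDH (5.28 CPM, replicate 3). In ebax-1 null with double AEDH, replicate 4 had the highest ratio of mir-237 to lin-4_5p (1.63). In the Y47 site deletion alone, replicate 2 had the lowest mir-237 (3206 CPM), replicate 1 the highest lin-4 star share (0.0936%) and replicate 4 the highest sum of both guides (7771 CPM).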

How the results depend on the processing

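Over the alternatives tried for the 4 arms and their ratios, 1085 values kept their direction and their side of the threshold, 50 lost a call, 13 gained a call and 60 changed sign, and the causes of these changes were not tested. All differences here are on the log2 scale, and adjusted p-values are those of edgeR or limma. The mir-237 star-to-guide ratio calls in the 3 double AEDH comparisons of experiment 2, and in ebax-1 null within double AEDH, held without any 1 library.

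With spike-in scaling, mir-237_3p* lost its double AEDH call in L4 larvae (1.93, adjusted p = 0.0590), in young adults of experiment 2 (0.87, adjusted p = 0.111) and in the Y47 site deletion (0.84, adjusted p = 0.119; 0.83 and 0.0552 with DESeq2 size factors). That scaling gained calls for ebax-1 null against wild type (mir-237 at 0.95, mir-237_3p* at 0.97), for mir-237 in ebax-1 null within double AEDH (0.71) and for mir-237_3p* in young adults against L4 larvae (-1.15), and put the lin-4_3p* interaction of ebax-1 null with double AEDH at -0.18. Over all arms, spike-in scaling called 107 higher and 0 lower for ebax-1 null against wild type. It called 26 and 0 for ebax-1 null within double AEDH, and 29 and 83 for young adults against L4 larvae. The lin-4_5p call in ebax-1 null was lost with total counts (0.72). Y47 site deletion differences near 0 changed sign for lin-4_5p with DESeq2's test or size factors (-0.0044), without a filter (-0.0033) and with spike-ins (-0.038), and for mir-237 with spike-ins (-0.026). Spike-in scaling was not run for experiment 3, and DESeq2 gave no adjusted p for lin-4_5p in embryo and stage comparisons.

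With the replicate number as a block, young adults against L4 larvae gained calls of lin-4_5p (-0.68), mir-237 (-0.51) and the lin-4 ratio (-0.87), and where numbers do not pair the samples ebax-1 null within double AEDH gained lin-4_5p (0.58, adjusted p = 0.0226). The block changed no other call of the 4 arms or 2 ratios. Without both second-replicate embryo libraries, an alternative chosen after seeing the data, the young adult differences were -0.68 and -0.51, and the guide ratio between L4 larvae and embryos was -0.17. Without any embryos lin-4_5p was at -0.63.

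Leaving out 1 library at a time gave these ranges for double AEDH. In young adults of experiment 1, lin-4_5p was at -0.016 to 0.15 and the ratios at 0.35 to 1.16 for mir-237 and -0.046 to 0.71 for lin-4. In L4 larvae, mir-237_3p* was at 1.70 to 2.29, mir-237 at -0.046 to 0.27, its ratio at 1.42 to 2.03 and the guide ratio at -0.070 to 0.13. In embryos, lin-4_5p was at -2.81 to 2.01, mir-237 at -1.40 to 0.61 and the guide ratio at -0.60 to 0.34. In experiment 2, lin-4_5p was at -0.084 to 0.21 and mir-237_3p* at 0.63 to 1.131. In the ebax-1 null background, lin-4_5p was at -0.29 to 0.014, the guide ratio at -0.46 to 0.14 and the lin-4_3p* interaction at -0.19 to 0.52. In the Y47 site deletion background, lin-4_3p* was at 0.56 to 1.25, mir-237_3p* at 0.73 to 1.00 and their interactions at -0.025 to 0.73 and -0.29 to 0.19. For ebax-1 null against wild type, lin-4_5p was at 0.62 to 0.89, lin-4_3p* at 0.84 to 1.34 and the mir-237 ratio at -0.10 to 0.059, and within double AEDH the stars were at 1.03 to 1.45 and 0.62 to 1.06. For the Y47 site deletion alone, lin-4_5p was at -0.13 to 0.18, mir-237 at -0.11 to 0.18, lin-4_3p* at -0.58 to 0.071, mir-237_3p* at -0.25 to 0.089, the lin-4 ratio at -0.53 to 0.072 and the guide ratio at -0.27 to 0.29. mir-237 in alg-1(AEDH) embryos was at -0.18 to 0.21. The mir-237 ratio was at -0.25 to 0.041 for young adults against L4 larvae and -2.06 to -1.15 for L4 larvae against embryos, where the guide ratio was at -0.17 to 0.54.

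Counts of arms called under double AEDH depended on spike-in scaling, the block and DESeq2's test. In young adults of experiment 1 they were 3, but 0 with spike-ins, 16 with DESeq2's test, 14 with the block and 0 to 10 without 1 library. In L4 larvae they were 11, but 2, 21 and 26 under the same 3 settings and 2 to 28 without 1 library. In embryos they were 24, but 12 with spike-ins and 62 with the block. In experiment 2 spike-in scaling gave 4 in place of 18, 11 in place of 25 in ebax-1 null and 2 in place of 16 in the Y47 site deletion, while ebax-1 null against wild type had 107 in place of 49. alg-1(AEDH) had 1, but 8 with the block, 4 with DESeq2's test and 3 with total counts, and alg-2(AEDH) had 8, but 29, 24 and 14 under the same 3 settings. DESeq2 size factors gave 6 in place of 3 in young adults of experiment 1, and embryos had 13 without both second replicates. Interactions with 0 to 2 calls stayed at 0 to 3, other than 18 in place of 1 with the block between embryos and L4 larvae. Ratio calls with the block were 11 in place of 6 in young adults of experiment 1, 17 in place of 10 in L4 larvae (6 with a minimum mean count of 1), 49 in place of 17 in embryos, 13 in place of 4 in alg-1(AEDH) and 45 in place of 25 between young adults and L4 larvae. At these depths lin-4_3p* in all embryos and lin-4_5p in experiment 3 had at most 1 and 7 counts a library and were not tested between embryo genotypes.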
